A study of Homo sapiens with 2 samples.

Results

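The 8 genes HMGCS1, IDI1, FDFT1, SQLE, SC4MOL, DHCR7, INSIG1 and SREBF2 of cholesterol synthesis and its control were followed in Y79 cells, an established human retinoblastoma line that grows in suspension. They were taken by gene name from the transcript probes of an oligonucleotide array, which carried 10 probes for them among 40976 probes for 30967 gene names. Of the 8 genes, 6 encode enzymes of the pathway and 2 encode parts of its control, and none encodes a protein of cholesterol uptake; uptake genes are given beside them. One array was hybridized with RNA of Y79 cells that had received no siRNA, and the other with RNA of Y79 cells 48 h after Ep-CAM siRNA. The comparison asks which transcripts differ once Ep-CAM, an epithelial cell adhesion molecule, is targeted. According to the study's methods both cultures had first been exposed to azacytidine (AZC), a DNA demethylating agent, while the labels name the siRNA treatment alone. By its label and the study's results text, the control had no siRNA, scrambled or other. An effect of transfection and an effect of the siRNA's target therefore cannot be told apart. The study's caption to its array heat map names both untreated cells and a nonsilencing control siRNA. With 1 array for each condition the ratios could not be checked in replicates, and the conditions were not tested against each other.

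Cells build cholesterol from acetyl-CoA through the mevalonate pathway, which also supplies isoprenoids, and then through squalene and a series of sterols. When sterols in the endoplasmic reticulum run low, SCAP escorts the membrane-bound factors SREBP1 and SREBP2 to the Golgi, where proteases release their active parts, and genes of synthesis and of lipoprotein uptake are transcribed. INSIG proteins hold SCAP back when sterols are plentiful. Because SREBP2 acts on most genes of the pathway, these transcripts often move as a group, and in retina cholesterol is both made locally and taken up from lipoproteins.

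None of the measured genes of the group differed by 1.5-fold between the arrays. Of the 8 genes, 6 were measured on both arrays (IDI1, FDFT1, SC4MOL, DHCR7, INSIG1 and SREBF2), and their log2 ratios, siRNA-treated over untreated, lay between -0.08 and 0.19 with a median of -0.002. A total of 3 lay above 0 and 3 below. HMGCS1 and SQLE were dim, that is, well above background on neither array, so nothing can be said of a change in them. The median over all 22062 genes measured on both arrays was -0.02 and their SD 0.33. Of these genes, 60.5% had a ratio no larger in size than 0.19, the largest of the group, so small ratios were common on the arrays.

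Each signal is the brightness of a spot after background subtraction, in arbitrary units. For ratios it was divided by the median of its array, 48.8 for untreated and 50.0 for siRNA-treated cells. A gene was read from its probe with the highest mean signal. Among the 23602 genes with a ratio or a bound, 3.91% were higher and 5.20% lower by 1.5-fold or more (a log2 ratio of 0.585), and 1.30% were higher and 0.881% lower by 2-fold or more. Over all 29148 probes with a ratio or a bound the shares were 4.04% and 5.41% at 1.5-fold and 1.28% and 0.933% at 2-fold. A count of 0 among 6 genes is near these shares, and it does not show that the genes were unchanged. Across the repeated spots of 171 probes the log2 ratio had a median SD of 0.14, which holds technical spread only. The ratios of 5 of the 6 genes were smaller than this SD, and all 6 were smaller than the error that the scanner software's own signal errors give them, which was between 0.20 and 0.29.

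**Figure D1:**
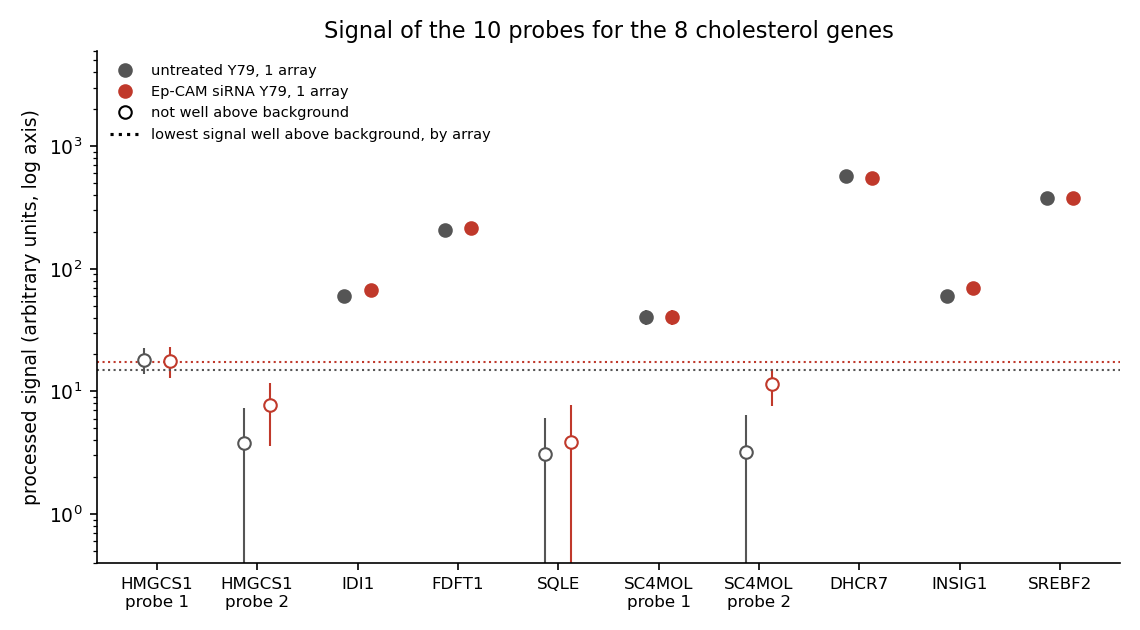
Processed signal (log axis) of the 10 probes on the untreated array (grey) and the Ep-CAM siRNA array (red), with bars for the signal error given by the scanner software, some of which run off the lower axis. Open symbols mark probes not well above background, and dotted lines the lowest signal well above background on each array (14.9 and 17.5). The lines are not a cut-off, because the software flags each spot by itself. The first HMGCS1 probe (18.1 and 17.8) is open though it lies above them. The 6 probes with filled symbols have nearly equal signals on both arrays, such as 376 and 378 for SREBF2.

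The enzymes at the entry to the pathway were covered in part. HMGCS1, which joins acetyl-CoA and acetoacetyl-CoA to HMG-CoA, had 2 probes on chromosome 5 (build hg17), from 43326838 to 43326897 and from 43325874 to 43325933. The first gave a signal of 18.1 ± 4.32 (the software's signal error) without siRNA and 17.8 ± 5.05 with it. The second gave 3.80 ± 3.52 and 7.70 ± 4.09, and neither probe was well above background on either array. IDI1 interconverts isopentenyl and dimethylallyl diphosphate, the building blocks of all isoprenoids. Its probe, on chromosome 10 from 1076619 to 1076678, gave 60.2 ± 7.02 without and 67.0 ± 8.03 with siRNA, a log2 ratio of 0.12.

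SC4MOL, now named MSMO1, removes methyl groups at carbon 4 of the sterol ring, and its 2 probes differed in what they can report. The first, on chromosome 4 from 166620795 to 166620854, gave 40.2 ± 5.51 and 40.5 ± 5.999, a log2 ratio of -0.02. The second, on chromosome 4 from 166621747 to 166621806 and 892 bases beyond the first, gave 3.18 ± 3.18 and 11.4 ± 3.82 and stayed near background on both arrays. The coordinates of the first run up the chromosome, with the strand of the gene, and those of the second, which was designed from an expressed sequence tag, run down it. Over 18817 probes whose accession matched a RefSeq gene with a strand (GRCh38.p14), the direction of the coordinates was that of the gene for 99.4%. The second probe is therefore listed against the strand of SC4MOL, and its signal was not read as SC4MOL transcript.

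The probes of SC4MOL are shown because their directions differ, those of HMGCS1 because both stayed near background, and that of INSIG1 because it had the largest ratio of the group. Each line gives the first 30 of 60 bases as the array files list them, 5′ to 3′, on hg17. The files do not give the exon or transcript region that a probe matches.
SC4MOL, chr4:166620795-166620854, + strand: gtcttctggctactaagtgataaaaagaac
SC4MOL, chr4:166621747-166621806, - strand: ttcaagagctcaaagtgcaaatacagcaag
HMGCS1, chr5:43326838-43326897, - strand: taaaggattacatgttatgtaaatttttat
HMGCS1, chr5:43325874-43325933, - strand: ataaggtatgacccaagtttttacctagtc
INSIG1, chr7:154537719-154537778, + strand: aatctatttagatcgggctgactgtacaaa
The 4 dim probes of the group had 35.0% to 38.3% G and C, and the 6 measured probes 35.0% to 55.0%. The same order was seen over the whole array, where probes well above background on neither array had a median of 36.7% and those measured on both 45.0%. The part of base composition in the dim signals of HMGCS1 was not tested.

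Further along the pathway the enzymes with a measured signal were again near equal on the arrays. FDFT1, squalene synthase, takes the first step that leads to sterols alone. Its signal on chromosome 8 (11733610 to 11733669) was 206 ± 20.8 without and 214 ± 21.7 with siRNA, a log2 ratio of 0.02. SQLE, which adds oxygen to squalene, is a control point of the pathway, and its probe on chromosome 8 (126103625 to 126103684) gave 3.07 ± 3.06 and 3.85 ± 3.83, not well above background on either array. DHCR7, which makes cholesterol from 7-dehydrocholesterol, gave 572 ± 57.3 and 553 ± 55.4 on chromosome 11 (70823162 to 70823221), a log2 ratio of -0.08.

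The control genes of the group were measured on both arrays. INSIG1, itself a target of the SREBP factors, gave 59.9 ± 6.72 in untreated and 70.1 ± 8.03 in siRNA-treated cells. Its log2 ratio of 0.19 was above the technical SD of 0.14 and below its own error of 0.23. With the authors' value table of raw brightness, background not subtracted, it was -0.01 beside a median of -0.04 for all genes. With another background model (normexp, offset 50) it was -0.06 beside a median of -0.23 for all genes, and 0.07 beside -0.02 once a spot fainter than its own background was left out of that fit, an alternative chosen after seeing the data. SREBF2, which encodes SREBP2, gave 376 ± 37.7 and 378 ± 38.0 on chromosome 22 (40626699 to 40626758), a log2 ratio of -0.03.

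The spots around the 6 measured probes were compared too, because ratios scattered unequally over the array. Within 5 rows and 5 columns of each probe, the other measured spots had median log2 ratios between -0.14 and 0.06 and SDs between 0.21 and 0.30. All 6 genes lay within 1 SD of their surroundings. Over all measured probes this local SD had a median of 0.28, and 0.49 at the 95th percentile.

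All 8 genes matched RefSeq, and the promoter table used held 6 of them (HMGCS1, IDI1, INSIG1, SC4MOL, DHCR7 and SREBF2), without FDFT1 and SQLE. Its windows run from 250 bases before to 50 after the start (GRCh38.p14), 10 windows for the 6 genes. The letters CCAAT were found on either strand in 6 of 6 genes and in 7 of the 10 windows. CCAAT is the core of the site of NF-Y, a factor known to act beside SREBP. The same letters stood in 34.6% of all windows and in 39.7% of the 27305 genes with a promoter in the table. A gene counts if any of its windows holds them, and genes with several windows have more chances. A match describes the sequence and not the use of a site.

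The wider pathway was described from 6 lists with 49 genes beside the group, of which 42 were measured on both arrays, 2 had a bound and 5 were dim on both. A bound is given as "at least N-fold" where a probe was well above background on 1 array, with its dim side set to the lowest signal well above background there or to its own signal if higher. Among these 44 genes 5 were higher and 2 lower by 1.5-fold, beside 3.91% and 5.20% of all genes, and none by 2-fold. The count of higher genes was 2 after subtraction of the median ratio of neighbouring spots, the bounds of FDPS and HSD17B7, and 1 with the authors' value table. That table holds raw brightness with the background not subtracted, so its ratios are not on the scale of the processed signal. Of all genes it had 292 higher and 544 lower by 1.5-fold. In that table IDI2 had 0.35 and LBR 0.19. Below, the lists of the mevalonate, sterol and SREBP control genes are counted with their members of the group of 8, and their medians are also given without them.

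**Figure D2:**
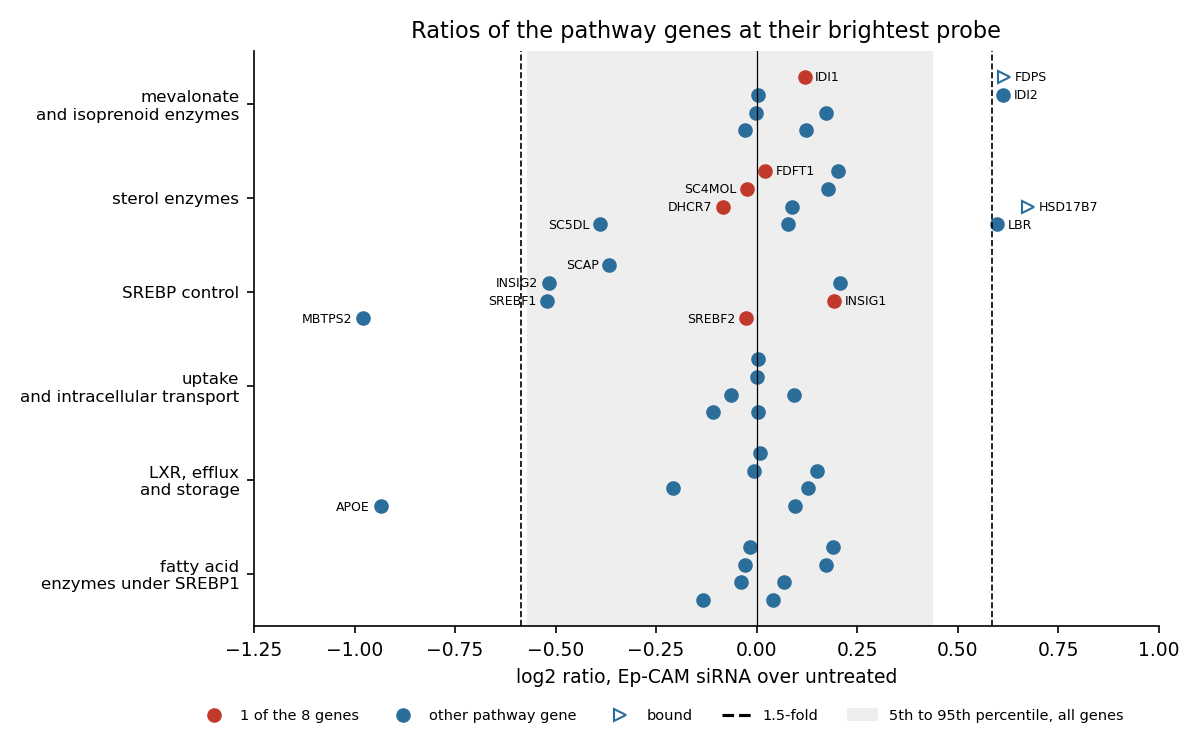
Log2 ratio of pathway genes at their brightest probe, Ep-CAM siRNA over untreated, by list; red points are genes of the group of 8, open triangles are bounds, dashed lines mark 1.5-fold and grey the 5th to 95th percentile of all genes (-0.57 to 0.44). The red points lie between -0.08 and 0.19, while APOE (-0.94), MBTPS2 (-0.98) and IDI2 (0.61) lie beyond the dashed lines.

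Of the mevalonate and isoprenoid enzymes 8 of 10 were measured, with a median log2 ratio of 0.12, and without the group 7 of 8, with 0.12 too. FDPS, which makes farnesyl diphosphate for FDFT1, was dim in untreated cells (17.7) and gave 27.7 after siRNA. It was at least 1.53-fold higher once each processed signal was divided by its array median. As a log2 ratio this bound is 0.62. It was 0.18 with the authors' value table, where the background is not subtracted. With normexp fitted without the faint spot, which adds an offset of 50, it was 0.22. IDI2, a second isomerase beside IDI1, gave 101 and 158, a log2 ratio of 0.61. The spots around IDI2 had an SD of 0.54, above the 95th percentile of all probes, and the part of its position in the result was not tested.

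Of the sterol enzymes 10 of 13 were measured, with a median log2 ratio of 0.08, and without the group 7 of 9, with 0.18. In the list 3 were higher by 1.5-fold, 1 of them as a bound and none from the group. LBR, a sterol reductase that also holds chromatin at the nuclear envelope, gave 28.2 and 43.8, a log2 ratio of 0.60, amid spots with an SD of 0.69. HSD17B7, which acts with SC4MOL in demethylation, was dim in untreated cells (10.9) and gave 24.4 after siRNA. It was at least 1.60-fold higher once each processed signal was divided by its array median. As a log2 ratio this bound is 0.68. It was 0.18 with the value table and 0.23 with the same normexp fit, neither of which is on the scale of the processed signal. LSS, which closes the sterol rings after SQLE, had ratios of 0.09 at its brightest probe and of -0.36 and 0.15 at the others measured, so its probes disagreed.

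The genes that control SREBP had a median log2 ratio of -0.37 over the 7 of 9 that were measured, INSIG1 and SREBF2 among them, and of -0.52 over the 5 of 7 without these. By 1.5-fold 1 was lower. MBTPS2, a protease that releases SREBP, gave 61.4 and 31.9, a log2 ratio of -0.98, amid spots with a median of -0.27. Its ratio was -0.30 with the authors' value table. SREBF1 gave 1057 and 755, a log2 ratio of -0.52, while its other probe had -0.09. INSIG2, the relative of INSIG1, gave 702 and 503, a log2 ratio of -0.52. SCAP gave 5783 and 4597, a log2 ratio of -0.37, which was -0.044 after quantile normalization. With all 7 genes the median of the list is the ratio of SCAP itself both times, so its move repeats that of 1 gene. Under the same scaling MBTPS2 had -0.98, INSIG2 -0.44 and SREBF1 -0.40.

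**Figure D3:**
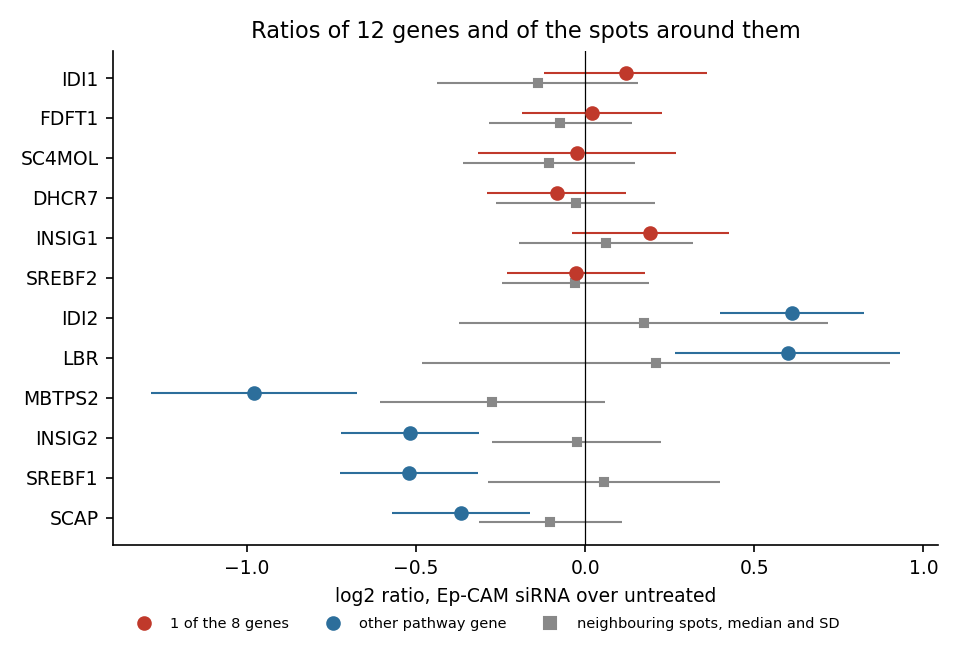
Log2 ratio of 12 genes (circles, with bars for the error from the software's signal errors) beside the median and SD of the measured spots within 5 rows and 5 columns (grey squares). The 6 genes of the group (red) lie within the grey bars, and the spots around LBR have the widest bar (0.69).

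Uptake and intracellular transport were covered by 8 of 9 genes, with a median of 0.00 and none past 1.5-fold. NPC1, which moves cholesterol out of lysosomes, gave 189 without and 179 with siRNA, a log2 ratio of -0.11. LIPA, the lysosomal lipase, was dim on both arrays.

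Among genes of LXR, efflux and storage 7 of 8 were measured, with a median of 0.01, and 1 was lower by 1.5-fold. APOE, the apolipoprotein that carries cholesterol out of glia and macrophages, gave 7040 without and 3771 with siRNA, a log2 ratio of -0.94. It was printed at 10 spots across the array, and 10 of them were lower after siRNA, between -1.01 and -0.85, with an SD of 0.05 that is technical. Of the 171 repeated probes, 3 had a mean ratio this low or lower, APOE included. Under the 12 alternatives its ratio lay between -1.59 and -0.60. ABCA1, the main exporter of cellular cholesterol, had -0.21, and ABCG1 -0.01. The fatty acid enzymes under SREBP1 were all measured, 8 of 8, with ratios between -0.13 and 0.19 and a median of 0.01; FASN had 0.07 and SCD -0.03.

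**Figure D4:**
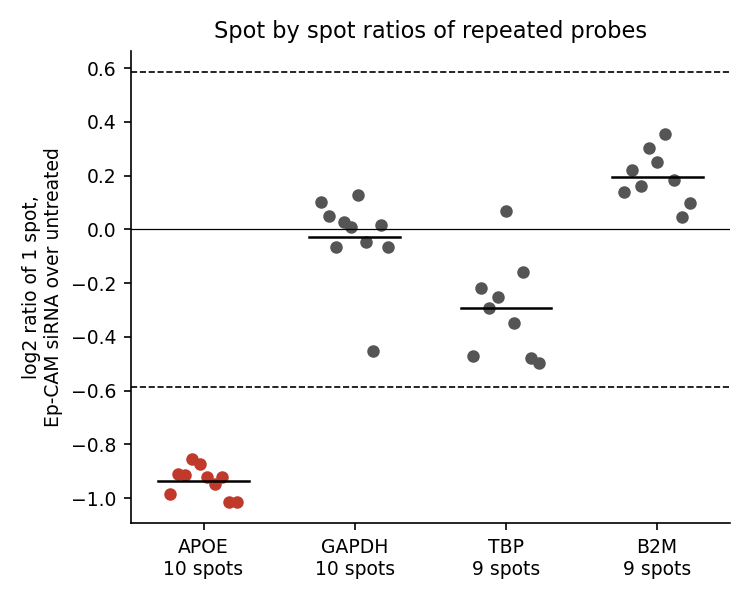
Log2 ratio of each spot, Ep-CAM siRNA over untreated, for APOE and the reference genes GAPDH, TBP and B2M, with a line at the mean of each and dashed lines at 1.5-fold. The 10 spots of APOE lie between -1.01 and -0.85, apart from those of the reference genes, whose means are -0.03, -0.29 and 0.20.

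The labels could be checked only in part. Ep-CAM itself (TACSTD1 in the files) gave 15.6 and 11.96 and was well above background on neither array, so the siRNA label was not tested by its target. Among the reference genes GAPDH had a log2 ratio of -0.03, TBP -0.29, B2M 0.20 and ACTB -0.32 (-0.22 and 0.02 at its other measured probes), and HPRT1 was dim on both arrays. Of 9 retinoblastoma and photoreceptor markers found on the arrays, CRX, OTX2 and ARR3 were measured on both, with ratios of -0.37, -0.47 and -0.21. THRB was at least 1.53-fold lower after siRNA, and NRL, RCV1, PDE6H, NEUROD1 and RXRG were dim on both. The summed signal of the list's probes, in multiples of the array median, was 6.56 without and 5.28 with siRNA. CRX had the brightest probe without siRNA and ARR3 with it, which does not rank transcripts of different genes. Probes for markers of other cell types were above background as well: 4 of 5 for glia, 4 of 5 for retinal pigment epithelium, 4 of 5 for fibroblasts and 5 of 5 for immune cells, among them CD3E with 815 and 749. Their median log2 ratios were 0.08, 0.09, -0.25 and 0.03. Detection on these arrays thus did not set the markers of retinoblastoma apart from those of other cells.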

How the data were processed

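Per the labels and the file headers, the deposited values are intensity values from 1 one-color Agilent array per condition, on 1 slide and in 1 scan, which the authors made with Feature Extraction (9.5.3.1 in the headers, 9.1 in the labels). The processed signal is background-subtracted and not scaled between arrays; flags mark other properties of spots. The authors' value table (medians 120 and 123) was within 1 unit of raw median brightness for 99.4% of probes and is on that raw scale, not centred and with no direction. Control spots were left out, as were outlier spots (117 untreated, 131 siRNA), signals were divided by the array median, floored at 0.01 and logged, and spots of a probe averaged. A probe was well above background if 50% of its spots were; of 43376 spots 70.4% and 68.0% were. Probes dim on both arrays (28.3%) got no ratio. The number of arrays limits the precision. Apart from some genes of the lists, which are not reported here, named were the 8 genes, list genes past 1.5-fold, 8 neighbours in the pathway, at most 4 others a list, the target and reference genes. The members and lists were chosen with earlier results of these data known. By accession, 9 of 10 probes matched RefSeq. The calls at 2-fold were tested on simulated data. Only changes larger than 2-fold were planted, in probes well above background in untreated cells, so smaller changes and dim probes were not covered. Python 3.11.15, pandas 2.3.3, numpy 2.4.6, matplotlib 3.10.9, R 4.3.3 and limma 3.58.1 were used.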

Additional observations from a re-analysis of the deposited data

How the results depend on the processing

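Of 72 ratios of the 6 measured genes under 12 alternatives, 65 moved by less than the technical SD of 0.14 and 7 by more. Many of the 65 could hardly move. A higher signal floor, the mean over measured probes and no filter on dim probes left these 6 ratios as they were. Scaling by another single factor shifts all genes alike. The count of 65 therefore does not measure how stable the ratios are. No gene of the group passed 2-fold under any of the alternatives. The exception at 1.5-fold was normexp with an offset of 50, which moved the median of all genes to -0.23 and left 133 genes higher and 3343 lower by 1.5-fold. There the median of the 6 measured genes was -0.24, near that of all genes, and 2 of them (2 probes) passed 1.5-fold, DHCR7 (-0.64) and SREBF2 (-0.60). Its list medians, members included, were -0.22 (mevalonate and isoprenoid), -0.005 (sterol enzymes, which moved by less than 0.14), -0.60 (SREBP control), -0.35 (uptake), -0.32 (LXR, efflux and storage) and -0.15 (fatty acid), and of the wider pathway 0 genes were higher and 4 lower. Leaving 1 spot that was fainter than its own local background out of the fit, an alternative added after seeing the data, normexp gave an all-gene median of -0.02, 356 genes higher and 531 lower, and 1 wider pathway gene higher and 1 lower. The authors' value table also gave 1 and 1, with 292 and 544 of all genes. Minus neighbouring spots, 2 were higher. Quantile normalization moved the SREBP control median, which is the ratio of SCAP, to -0.044 and gave 1001 genes higher and 948 lower, against 923 and 1228. With no filter on dim probes 2 member probes passed 1.5-fold, the second probes of HMGCS1 (0.98) and SC4MOL (1.80), both near background, and 4 wider pathway genes were lower. The cause of the other shifts was not tested. Dim signal limits HMGCS1 and SQLE, which gave no ratio.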
